A study of Mus musculus with 12 samples.

Results

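Tongues of control mouse embryos, taken at embryonic day 13.5, were described from the 6 control arrays of a series of 12, 1 Affymetrix Mouse Genome 430 2.0 array per sample. No array of the mutant group enters a value below, except that the brightest probe set of each gene was picked over all 12 arrays. The 6 control samples were embryos of genotype Myf5-Cre;Smad4flox/+ on the C57BL/6J background, and their RNA came from the whole tongue. They were therefore not wild type. Each carried a Cre recombinase driven by Myf5, a gene of the muscle lineage, and 1 floxed copy of Smad4, the shared transducer of TGF-β and BMP signals. The labels call the samples biological replicates, and the sources used here give neither the number of tongues in a sample nor the litters or sexes. In all, 18193 genes were measured, each by 1 probe set, and the spread given is that between the 6 arrays.

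The mammalian tongue forms on the floor of the mouth from swellings of the pharyngeal arches. Its mesenchyme comes mainly from cranial neural crest, while its muscle comes from progenitors that migrate in from the occipital somites. At this stage the myoblasts fuse into multinucleate fibres under the regulators Myod1 and myogenin, axons of the hypoglossal nerve arrive, and taste placodes appear in the dorsal epithelium. Embryonic muscle uses other isoforms of myosin, troponin, actin and the acetylcholine receptor than adult muscle does. Ligands of the FGF, BMP, Wnt, hedgehog and Notch families pass between epithelium, mesenchyme and muscle.

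Some arrays stood apart. Xist, the RNA that coats the inactive X chromosome, read 12.43, 12.40 and 12.49 on controls 1, 3 and 5, and between 6.20 and 6.65 on controls 2, 4 and 6. The Y-linked Eif2s3y read 9.34, 8.93 and 9.26 on controls 2, 4 and 6, 3.14 and 3.27 on controls 1 and 5, and 6.03 on control 3. Kdm5d and Uty were likewise between the other arrays on control 3, at 5.22 and 4.68. Control 3 thus carried high Xist together with Y-linked signal above that of controls 1 and 5. Control 1 lay lowest on the first principal component (a score of -15.1 against 16.4 for control 2) and held the lowest value of most muscle genes, as described below. The 18S ribosomal RNA probe set at the 3′ end read 12.65 on control 6 and between 13.74 and 14.03 on the other arrays. Pairs of control arrays correlated at 0.995 to 0.997 over all probe sets, and their medians lay between 6.10 and 6.16.

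Values are log2 signals made by the authors with RMA, so a difference of 1 stands for a doubling of signal. RMA gives no detection call. A floor was therefore set from genes that a tongue is not known to use. The 71 olfactory and vomeronasal receptor genes had a median signal of 3.93, and the 95th percentile of their means, 5.72, was taken as the floor. Above it lay 12956 of 18193 genes (71.2%), the background against which each count of a gene list below is to be read. Each gene was placed by its brightest probe set. Of 520 distinct list genes above the floor, 150 also had a probe set that was not above it. A stricter floor at the 99th percentile, 6.45, left 11566 genes and 476 of these 520 list genes. The counts of several lists below are therefore smaller under it, including some where this is not stated again. Probe sets differ in how strongly they bind, so a signal places a gene against the floor and follows it between arrays, while the order of signals of different genes is not the order of their transcript numbers.

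**Figure D1:**
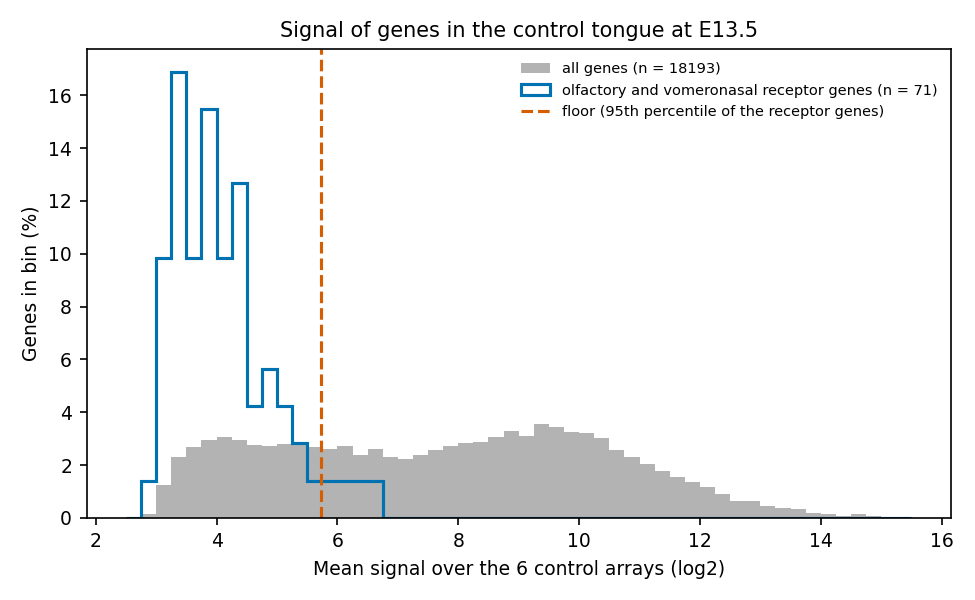
Share of genes in each bin of mean log2 signal over the 6 control arrays, for all 18193 genes (grey) and for 71 olfactory and vomeronasal receptor genes (blue outline), with the floor at 5.72 (dashed line). Nearly all receptor genes sit left of the line, with the highest at 6.64, while 71.2% of all genes sit right of it.

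Genes of the translation machinery headed the signals. Of the 20 genes with the highest mean, 16 coded for ribosomal proteins by their symbols, among them Rpl37a, Rpl41, Rplp2, Rps29, Rplp0, Rps18, Rpl7a and Rpl38. The others were Tpt1, Tmsb10, the elongation factor Eef1a1, and Fau, whose product includes a ribosomal protein. Just behind them came genes that tell the tissue and the stage. Actc1, the actin of the heart and of embryonic skeletal muscle, ranked 23 at 14.67 ± 0.03 (mean ± SD, n = 6 here and below). Hbb-y, the embryonic beta-like globin of primitive red cells, ranked 25 at 14.66 ± 0.06. The growth factor gene Igf2 ranked 28 at 14.65 ± 0.03. In all, 86 genes had a mean of at least 14 and 936 of at least 12.

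Regulators of myogenesis were nearly all above the floor, with 26 of 28 measured members. Myog, which drives differentiation, ranged from 13.08 to 13.23 with a median of 13.14, and its SD of 0.05 was below the median SD of 0.11 over all genes above the floor. Myod1, which commits cells to the muscle fate, ranged from 11.26 to 11.45 (11.38 ± 0.08). Myf5, the earliest of the myogenic factors and the gene whose control regions drive the Cre, was more variable, from 10.07 on control 1 to 10.86 on control 2 (10.37 ± 0.30). Myf6, the factor of late differentiation, read 6.89 on control 1 and between 7.96 and 8.40 on the other arrays. The markers of muscle progenitors Pax7 (9.09 ± 0.23) and Pax3 (9.00 ± 0.24) were above the floor on each array. The head-muscle regulators Tbx1 (10.31 ± 0.10), Msc (10.34 ± 0.18) and Pitx1 (11.18 ± 0.11) were read together with Lbx1 (8.75 ± 0.08), a gene of migrating somitic progenitors. The fusion proteins myomaker, from Mymk (10.85 ± 0.37), and myomixer, from Mymx (11.48 ± 0.12), were above the floor on each array. Mef2c read 12.04 ± 0.16, Mef2a 11.32 ± 0.12 and Mef2d 10.05 ± 0.04, while Mef2b (5.41 ± 0.06) and Lhx2 (4.64 ± 0.12) were not above it.

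Among myosin heavy chains, 9 of 11 were above the floor. Myh3, the embryonic chain, ranged from 13.85 to 14.17 with a median of 14.05 (14.02 ± 0.13). Myh8, the perinatal chain, ranged from 11.54 on control 1 to 12.58 on control 2 with a median of 12.17 (12.10 ± 0.38). Myh7, the slow chain of heart and slow fibres, read 11.01 on control 1 and up to 11.75 on control 6, with a median of 11.58 (11.51 ± 0.26). On every array these developmental and slow chains lay far above the floor, with control 1 lowest in each. Of the adult fast chains, Myh2, of fast oxidative fibres, was not above the floor (3.80 ± 0.13), and Myh4 (6.73 ± 0.24) and Myh1 (7.63 ± 0.26) were above the floor by their brightest probe set, though 1 further probe set of each was not. The non-muscle chains Myh10 (12.84 ± 0.11) and Myh9 (11.85 ± 0.18) were above it, and the smooth muscle chain Myh11 (5.37 ± 0.15) was not.

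The light chains gave 7 of 9 members above the floor. Mylpf (14.36 ± 0.11) and Myl1 (14.22 ± 0.08), regulatory and essential chains of fast skeletal muscle, and Myl4 (13.69 ± 0.14), the chain of atria and of embryonic muscle, were far above it. Myl2, the slow and ventricular regulatory chain, was near 8 with a wide spread, from 7.21 on control 1 and 7.50 on control 6 to 8.39 on control 2 (7.97 ± 0.49). Myl7, the atrial regulatory chain, was not above the floor (5.36 ± 0.09). Myl6 is given with caution, since probe sets with several symbols were not used and its 6.82 ± 0.12 comes from those that remained.

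Slow, cardiac and fast troponins were all read in the tongue. Above the floor lay 7 of 8 troponin genes, with means from 11.39 to 13.92. For the slow forms, Tnnt1 read 13.71 ± 0.10, Tnni1 13.64 ± 0.10 and Tnnc1 13.38 ± 0.06. For the fast forms, Tnnc2 read 13.92 ± 0.14, Tnni2 12.11 ± 0.30 and Tnnt3 11.39 ± 0.46. Tnnt2, the cardiac troponin T that embryonic skeletal muscle also uses, read 13.03 ± 0.13. Cardiac troponin I, from Tnni3, was not above the floor (5.16 ± 0.24). The fast forms Tnni2 and Tnnt3 varied more than the slow ones did, with control 1 lowest in each, at 11.53 and 10.61.

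All 4 muscle actins were above the floor. Actc1 ranged only from 14.64 to 14.70 with a median of 14.66. Acta1, the actin of mature skeletal muscle, read 13.36 on control 1 and between 13.83 and 14.01 on the other arrays (13.83 ± 0.23, and an SD of 0.06 without control 1). Acta2, of smooth muscle, read 14.12 ± 0.05, and 2 of its 3 probe sets were not above the floor.

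Structural genes of the sarcomere gave 20 of 21 members above the floor. They included Tpm1 (13.29 ± 0.13), Actn2 of the Z-disc (12.39 ± 0.17), Ttn, which codes for the spring protein titin (11.69 ± 0.40), Des, for the intermediate filament desmin (10.71 ± 0.21), and Neb, for nebulin (9.94 ± 0.40). Mybpc1, the slow form of myosin-binding protein C, read 9.88 ± 0.22, while the fast form Mybpc2 was not above the floor (5.09 ± 0.20). Actn3, the Z-disc protein of fast fibres, was the most variable sarcomere gene. It read 6.88 on control 6 and between 8.45 and 9.70 on the other arrays (8.78 ± 1.07, and 0.58 as the SD without control 6).

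**Figure D2:**
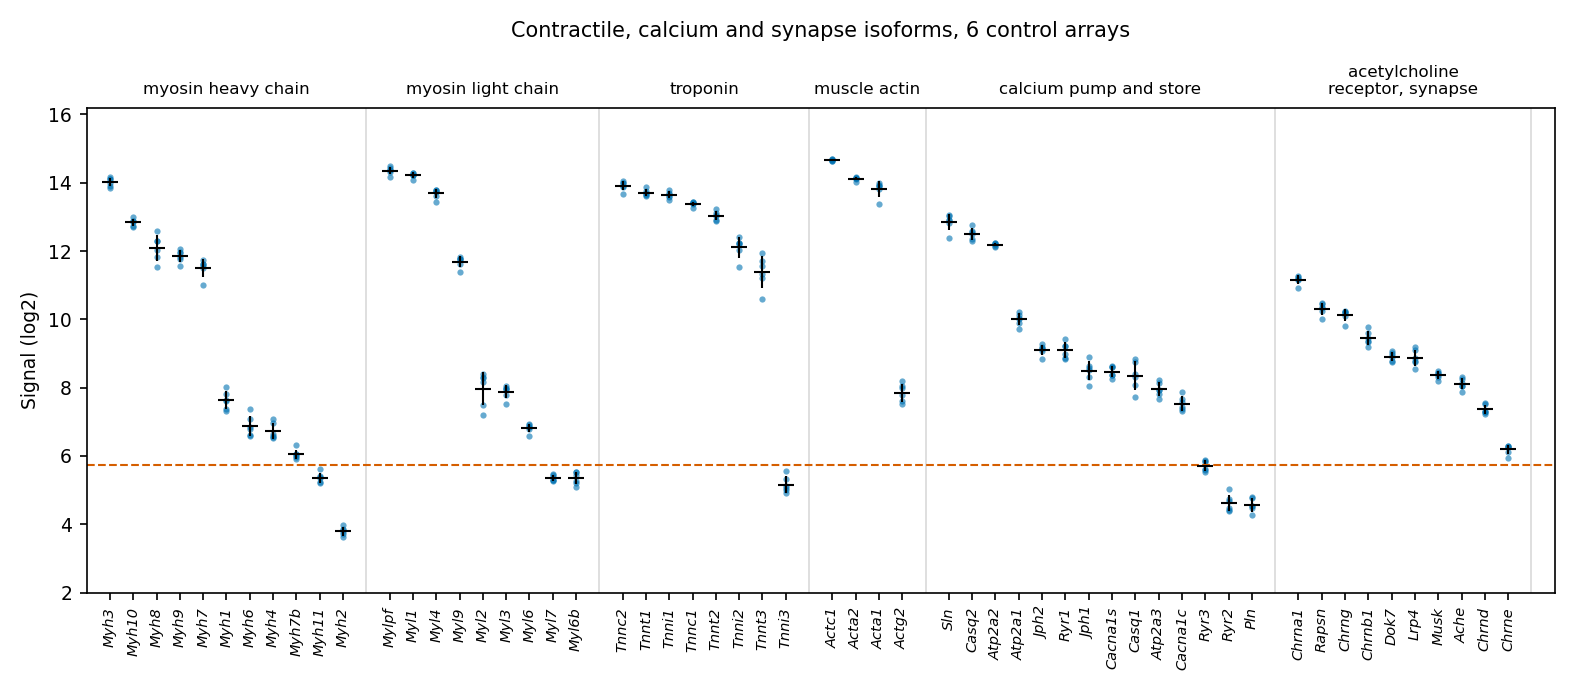
Log2 signal of each measured gene of the myosin, troponin, actin, calcium-handling and acetylcholine receptor lists, with 1 point per control array and a black bar for the mean ± SD (n = 6), ordered by mean within each list. The dashed line is the floor at 5.72; Myh3 sits at 14.02 and Myh2 at 3.80, and the order within a list is one of signals.

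Of 14 calcium-handling genes, 11 were above the floor, with slow and fast forms among them. Casq2, the calsequestrin of heart and slow muscle, read 12.51 ± 0.17, and Atp2a2, the slow and cardiac calcium pump, 12.19 ± 0.04. The fast counterparts Casq1 (8.35 ± 0.42) and Atp2a1 (10.01 ± 0.17) were above the floor as well. Sln, whose product sarcolipin restrains the pump, read 12.38 on control 1 and up to 13.04 on control 2 (12.85 ± 0.24), while Pln, for the related phospholamban, was not above the floor (4.56 ± 0.19). The release channel of skeletal muscle, Ryr1, read 9.10 ± 0.23, and Ryr2, that of the heart, 4.62 ± 0.25, which is not above the floor. Ryr3 lay at the floor (5.71 ± 0.16), with another of its 3 probe sets above it.

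At the nerve and muscle contact, all 10 genes were above the floor. Of the receptor subunits, Chrna1 ranged from 10.91 to 11.28 (11.16 ± 0.13), Chrng, the embryonic gamma subunit, from 9.80 to 10.25 (10.13 ± 0.17), and Chrne, the adult epsilon subunit that replaces gamma after birth, from 5.93 to 6.29 (6.19 ± 0.14). Chrne was under the stricter floor of 6.45, and Chrng was far above both. The clustering proteins from Rapsn (10.31 ± 0.17), Musk (8.37 ± 0.11), Dok7 (8.91 ± 0.12) and Lrp4 (8.87 ± 0.24) were all read.

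Of 26 metabolic isoforms, 23 were above the floor. Muscle forms of glycolysis were present, with Pgam2 at 12.10 ± 0.11 and Eno3 at 10.88 on control 1 and between 11.73 and 12.01 on the other arrays. Ckm, the muscle creatine kinase, ranged from 7.31 on control 1 to 9.46 on control 2 (8.54 ± 0.74), the widest spread in the skeletal muscle list. Its brain counterpart Ckb read 10.49 ± 0.17, and the mitochondrial Ckmt2 of mature muscle was not above the floor (3.76 ± 0.19). Mb, for myoglobin, read 7.58 ± 0.08. The heart and skeletal muscle subunits of cytochrome oxidase differed among themselves, with Cox6a2 (10.29 ± 0.24) and Cox8b (9.41 ± 0.32) above the floor and Cox7a1 (5.54 ± 0.23) not.

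The promoters of 4 muscle genes, an actin, an enzyme and a pair of receptor subunits, are shown as examples of genes that varied with Acta1 over the 6 arrays, with r = 0.87 for Chrna1, 0.85 for Chrng and 0.79 for Ckm. These r are a description with no test, and control 1 was the lowest array for all 4 genes. The 4 were chosen after their values were seen, and other muscle genes had an r as high, such as Des (0.85) and Tnnt3 (0.84). Each is the 250 bases before the annotated start, 5′ to 3′ on the gene's strand, from RefSeq on GRCm38.p6. Capitals mark CAGCTG, a form of the E-box that Myod1 and myogenin are known to bind, the CArG box that serum response factor is known to bind, and TATAAA. The windows are Acta1 at chr8:123894776-123895025 (minus strand), Ckm at chr7:19410844-19411093 (plus strand), Chrna1 at chr2:73580339-73580588 (minus strand) and Chrng at chr1:87205561-87205810 (plus strand).
Acta1: 
Ckm: 
Chrna1: 
Chrng: 

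In these windows CAGCTG began 221 bases before the start of Acta1, 249 before that of Ckm, 92 and 44 before that of Chrna1, and 155 and 132 before that of Chrng. Acta1 alone of the 4 also held a CArG box, 73 bases before the start, and TATAAA, 7 bases before it. Both strands were searched, and the motifs do not overlap one another in these windows. Over all 32851 promoter windows of that length in the table, 13.0% held CAGCTG, 1.47% a CArG box and 12.4% TATAAA. Of 18 windows of 17 genes of the skeletal muscle list, 11 held CAGCTG, 2 a CArG box (Acta1 and Actc1) and 4 TATAAA. Tnni1 held CAGCTG in both of its windows and so counts for each. Windows without CAGCTG included those of Myog, Myh3, Tnnt1, Actc1, Tnnc2 and Ttn. A match is a run of letters and does not show binding.

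Ligands of the FGF family were split, with 11 of 22 above the floor, whereas all 5 receptors were above it. Of the 11, Fgf22 (6.28), Fgf1 (6.09) and Fgf12 (5.84) lay under the stricter floor. Fgf7, a mesenchymal ligand that acts on epithelium, ranged from 9.42 on control 1 to 10.10 on control 2 (9.76 ± 0.24). Fgf10, its relative, read 7.06 ± 0.21. Fgf9 (8.86 ± 0.05) and Fgf18 (9.13 ± 0.13) were above the floor on each array. Fgf6, a ligand made by muscle, ranged from 8.37 to 9.23 (8.68 ± 0.30), and Fgf4 read 6.62 ± 0.10. Fgf13, an intracellular member that is not secreted, read 10.73 ± 0.14. Fgf8 (5.32 ± 0.19), Fgf20 (4.64 ± 0.16) and Fgf2 (3.81 ± 0.14) were not above the floor. Among receptors, Fgfr1 read 10.92 ± 0.11, Fgfr2 9.46 ± 0.13, Fgfr3 8.48 ± 0.27, and Fgfr4, the receptor of muscle progenitors, 8.40 on control 1 and up to 8.99 on control 3 (8.81 ± 0.23).

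BMP ligands gave 9 of 12 members above the floor and BMP receptors 5 of 5. Of these, the ligands Bmp10 (6.32) and Bmp8b (6.29) and the receptor Acvrl1 (6.30) lay under the stricter floor. Bmp4 ranged from 10.15 to 10.47 (10.32 ± 0.11). Bmp2 was lowest on control 1 at 9.23 and highest on control 2 at 9.92 (9.53 ± 0.27), and Bmp7 read 8.69 ± 0.09. Gdf5, a ligand of joints, was not above the floor (4.89 ± 0.32). The receptors Bmpr1a (11.87 ± 0.06), Bmpr2 (11.73 ± 0.09) and Acvr1 (10.71 ± 0.13) were far above it, and Bmpr1b read 7.82 ± 0.15. Secreted antagonists gave 8 of 9, with Sostdc1 at 11.74 ± 0.14 and Fst, for follistatin, at 11.25 ± 0.12, while Nog, for noggin, was not above the floor (5.49 ± 0.15).

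Ligands of the TGF-β and activin branch were above the floor in 7 of 7 genes, among them Tgfb2 (11.25 ± 0.14) and Tgfb3 (10.16 ± 0.07). Of the 7, Tgfb1 (6.04 ± 0.11) and Gdf11 (6.25) lay under the stricter floor. Their receptors gave 6 of 7, with Tgfbr1 at 12.23 ± 0.05, Tgfbr2 at 11.49 ± 0.10 and Acvr1c not above the floor (5.28 ± 0.15). Smad4, of which these embryos carry 1 floxed copy, ranged from 12.16 to 12.35 (12.29 ± 0.07). The receptor-activated Smads of the BMP branch, Smad1 (11.89 ± 0.23) and Smad5 (11.25 ± 0.11), and of the TGF-β branch, Smad3 (11.40 ± 0.06) and Smad2 (9.49 ± 0.22), were all read. The inhibitory Smad6 (8.78 ± 0.08) and Smad7 (8.69 ± 0.07) were above the floor too, and Smad9 was not (5.21 ± 0.09). Mstn, the ligand myostatin, had no usable probe set here.

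Wnt ligands gave 13 of 19 members above the floor, receptors 15 of 15 and antagonists 9 of 9. Of these, the ligand Wnt10b (6.00) and the antagonists Sfrp5 (6.43), Sfrp4 (6.31) and Dkk1 (6.15) lay under the stricter floor. Wnt5a, which guides outgrowth and cell polarity, was lowest on control 3 at 11.44 and highest on control 1, with a median of 11.75 (11.71 ± 0.21). Wnt4 (9.43 ± 0.20), Wnt7b (8.92 ± 0.09), Wnt10a (8.34 ± 0.12), Wnt6 (7.85 ± 0.09) and Wnt11 (7.73 ± 0.15) were above the floor. Wnt1 (4.40 ± 0.14) and Wnt3 (3.84 ± 0.15) were not above the floor. Ror2, a receptor of Wnt5a, read 9.51 ± 0.12, Fzd2 11.64 ± 0.19 and Lrp6 10.38 ± 0.10. Of the antagonists, Sfrp2 read 11.89 ± 0.21, and Sfrp1 was 9.23 on control 1 and between 10.22 and 10.79 on the others (10.29 ± 0.57).

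**Figure D3:**
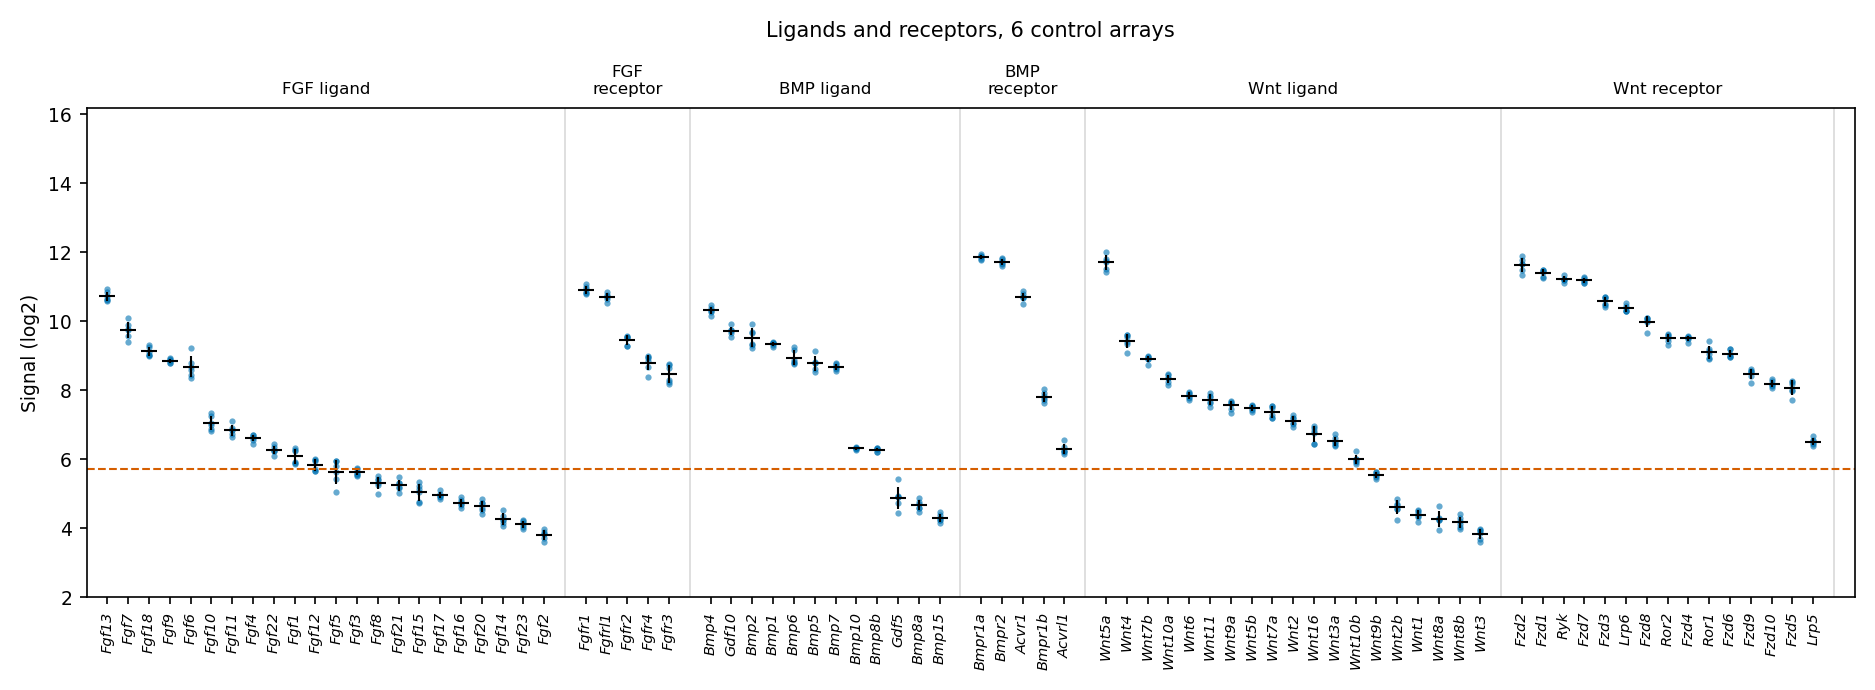
Log2 signal of the measured FGF, BMP and Wnt ligands and receptors, with 1 point per control array and a black bar for the mean ± SD (n = 6), ordered by mean within each list. The dashed line is the floor at 5.72. Above it lie 11 of 22 FGF ligands, 9 of 12 BMP ligands, 13 of 19 Wnt ligands and all receptors shown. Some of them lie under the stricter floor.

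Hedgehog signalling was represented by Shh, made by the lingual epithelium and its placodes, which ranged from 10.05 on control 6 to 10.70 on control 5 (10.47 ± 0.25). Dhh read 6.18 ± 0.17, under the stricter floor, and Ihh was not above the floor (5.16 ± 0.16). All 9 receptors and effectors were above it, among them the receptor Ptch1 (11.97 ± 0.14), the transducer Smo (11.41 ± 0.07), and the transcription factors Gli3 (11.04 ± 0.11), Gli2 (10.97 ± 0.11) and Gli1 (8.33 ± 0.14). Notch ligands and receptors were above the floor in 6 of 6 and 4 of 4 genes. Of the ligands, Dll4 (6.30) and Dll3 (5.97) lay under the stricter floor. Dlk1, a non-canonical ligand high in fetal tissue, read 13.14 ± 0.11, Jag1 10.95 ± 0.14 and Dll1 9.11 ± 0.07. Control 4 was the lowest array for each of Notch1, Notch2, Notch3 and Notch4, where 13.5% of all genes above the floor were lowest on that array, and Notch2 was the widest of them, from 10.24 to 10.94.

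Growth factor genes of the IGF and PDGF families were above the floor throughout. Igf2 ranged from 14.61 to 14.69, and Igf1 read 12.54 ± 0.08. All 10 receptors and binding proteins of the family were above the floor, with Igfbp5 at 13.53 ± 0.08, Igfbp4 at 13.45 ± 0.04, Igf2r, which clears Igf2, at 12.28 ± 0.22 and Igf1r at 11.24 ± 0.07. Pdgfc (11.65 ± 0.11) and Pdgfa (11.54 ± 0.06) were read with their receptor Pdgfra (12.35 ± 0.11), and Pdgfb (7.74 ± 0.13) with Pdgfrb (11.85 ± 0.19). In all, 8 of 8 PDGF and VEGF ligands and 5 of 5 of their receptors were above the floor.

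Guidance cues for muscle progenitors and nerve were above the floor in 13 of 13 ligands and 14 of 15 receptors. Hgf, which draws migrating muscle progenitors, read 6.30 ± 0.12, under the stricter floor, and its receptor Met 10.46 ± 0.08. Cxcl12 read 10.65 ± 0.17, with its receptors Ackr3 at 10.80 ± 0.12 and Cxcr4 at 8.43 ± 0.08. Sema3c (11.80 ± 0.27), Sema3f (10.06 ± 0.32) and Sema3a (9.94 ± 0.14), repellents of axons, were read with Nrp1 (12.49 ± 0.14) and Nrp2 (10.69 ± 0.14). Slit2 (10.68 ± 0.17) had its receptor Robo1 (10.96 ± 0.14) above the floor, and Robo2 (4.51 ± 0.20) was not. The neurotrophic Gdnf (7.03 ± 0.17) and Bdnf (7.29 ± 0.13) were above the floor, as were their receptors Ret (8.29 ± 0.31), Gfra1 (9.44 ± 0.25) and Ntrk2 (9.69 ± 0.27).

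Retinoic acid genes gave 13 of 14 members above the floor. Those that bind the ligand in the cell, Crabp1 (12.46 ± 0.21) and Crabp2 (11.56 ± 0.24), were read with enzymes that make it, Aldh1a3 (9.18 ± 0.20) and Aldh1a2 (8.16 ± 0.25), and enzymes that degrade it, Cyp26b1 (9.16 ± 0.21) and Cyp26a1 (9.07 ± 0.16). Aldh1a1 was not above the floor (4.80 ± 0.18).

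Since whole tongues were used, fewer cells of a type and less RNA per cell cannot be told apart in any value here. In most lists of markers of tongue tissues, the share above the floor was higher than the 71.2% of all genes. It was near that share for taste placodes and lower for cartilage and bone. The skeletal muscle list was above the floor in 20 of 20 genes and the oral epithelium in 21 of 22. Basal keratins were read in the epithelium, with Krt15 at 12.79 ± 0.34, Krt5 at 11.80 ± 0.20 and Krt14 at 11.73 ± 0.21, beside the junction genes Dsp (12.12 ± 0.13), Perp (11.30 ± 0.23) and Cdh1 (11.07 ± 0.21). Krt13, a keratin of the differentiated lining, was not above the floor (4.78 ± 0.42), and its partner Krt4 ranged from 6.13 on control 1 to 8.73 on control 2 (7.57 ± 0.88). Of the taste placode list, 10 of 14 genes (71.4%) were above the floor, beside 71.2% of all genes. Of the 10, Tas1r3 (6.43), Prox1 (6.31), Plcb2 (6.07) and Wnt10b (6.00) lay under the stricter floor. Sox2, a placode and progenitor factor, ranged from 10.09 to 11.03 (10.48 ± 0.37). The sweet and umami receptors Tas1r2 (5.22 ± 0.12) and Tas1r1 (5.65 ± 0.02) and the taste cell keratin Krt20 (4.55 ± 0.12) were not above the floor.

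The mesenchyme of the cranial neural crest was above the floor in 14 of 15 genes. Foxd1 (11.36 ± 0.18), Osr1 (11.10 ± 0.16), Twist1 (11.03 ± 0.18), Twist2 (10.67 ± 0.13) and Foxf2 (10.37 ± 0.18) joined Pdgfra among the 6 with the highest means, Prrx1 read 10.34 ± 0.17, and Msx2 lay just under the floor (5.63 ± 0.09). Matrix genes were above it in 15 of 15, with Col1a2 at 14.18 ± 0.07, Col3a1 at 14.13 ± 0.11, Sparc at 13.38 ± 0.10 and Postn at 12.93 ± 0.14. Tendon markers were above the floor in 8 of 9 genes. Of the 8, Kera (6.28) and Mkx (6.15) lay under the stricter floor. Thbs4 read 12.80 ± 0.19, Tnc 11.50 ± 0.18 and Scx, the defining factor of tendon progenitors, 6.89 ± 0.08. Of cartilage and bone genes, 9 of 16 (56.2%) were above the floor, beside 71.2% of all genes. Col9a1 (9.57 ± 0.20), Col2a1 (9.15 ± 0.24), Col11a1 (9.07 ± 0.12) and Sox9 (8.28 ± 0.15) were read, but the structural genes of mature cartilage Acan (5.24 ± 0.17), Matn1 (3.28 ± 0.15), Comp (5.64 ± 0.20) and Col10a1 (4.96 ± 0.21) were not above the floor.

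Nerve was represented by neurons (14 of 16 genes) and Schwann cells (8 of 10). Among neuronal genes, Dcx (10.05 ± 0.21), Gap43 of growing axons (9.81 ± 0.14), Stmn3 (8.76 ± 0.19) and Nefl (8.65 ± 0.22) were above the floor, while the synaptic Snap25 (5.35 ± 0.18) and the catecholamine enzyme Th (5.27 ± 0.15) were not. Erbb3 (11.37 ± 0.10) and Sox10 (8.69 ± 0.12), of Schwann cell precursors, were read, and Egr2, of myelinating Schwann cells, was not above the floor (5.61 ± 0.11). Endothelium gave 16 of 17, with Eng (9.53 ± 0.11) and Cdh5 (9.52 ± 0.08) among them and the lymphatic Lyve1 not above the floor (5.26 ± 0.32). Macrophage genes gave 14 of 15, among them Csf1r (10.63 ± 0.09), Tyrobp (9.44 ± 0.09) and C1qb (9.10 ± 0.08), and Cd163 of resident scavenger macrophages was not above it (3.44 ± 0.12). Smooth muscle and pericyte genes gave 10 of 12, without the mature smooth muscle genes Myh11 and Cnn1 (5.42 ± 0.08). Genes of the cell cycle were above the floor in 12 of 12, with Pcna at 13.57 ± 0.11, Top2a at 12.47 ± 0.11 and Mki67 at 12.09 ± 0.18.

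Embryonic globins were read in the tongue. Hbb-y ranged from 14.57 to 14.72, Hba-x, the embryonic alpha-like chain, from 12.20 to 12.78 (12.56 ± 0.23), and Hbb-bh1 from 10.06 to 11.07 (10.69 ± 0.40). The adult chains cannot be set beside them here. Probe sets of adult globins mostly carry several symbols and were left out, and the remaining ones of Hba-a1 (4.72 ± 0.15), Hba-a2 (5.84 ± 0.09) and Hbb-b2 (7.22 ± 0.63) do not stand for the level of adult globin.

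Genes of other organs were mostly not above the floor. The thyroid, which buds from the floor of the pharynx near the tongue, had 1 of 6 genes above it (Hhex, 7.43 ± 0.11), with Tg (5.13 ± 0.21) and Pax8 (4.03 ± 0.14) not above. Liver gave 2 of 7, with Alb at 4.92 ± 0.11, melanocytes 2 of 6, with Tyr at 3.90 ± 0.15, and the central nervous system 2 of 9, with Otx2 at 3.27 ± 0.11 and Olig2 at 3.11 ± 0.16. Heart gave 4 of 9. Nkx2-5, known as a cardiac factor, read 9.62 ± 0.16, while Gata4 (5.38 ± 0.15), Nppa (3.83 ± 0.15) and Nppb (5.12 ± 0.12) were not above the floor. Tooth and palate gave 8 of 11, among them Meox2 (11.16 ± 0.11), Barx1 (9.90 ± 0.13) and Lhx8 (9.40 ± 0.20), and the tooth matrix genes Ambn (3.80 ± 0.07), Amelx (5.21 ± 0.15) and Dspp (4.46 ± 0.25) were not above it. Hox genes, which set position along the trunk and are silent in most of the first pharyngeal arch, were above the floor in 11 of 33 (33.3% against 71.2% of all genes). Of the 11, Hoxa9, Hoxb3, Hoxb4, Hoxc6, Hoxd3 and Hoxd9 lay under the stricter floor, with means from 5.76 to 6.38. Hoxd8 ranged from 7.39 on control 1 to 8.41 on control 6 (8.06 ± 0.40), and Hoxd11 (3.24 ± 0.12), Hoxa10 (3.46 ± 0.10) and Hoxa13 (4.55 ± 0.17) were among the 22 not above. Dlx genes, which pattern the arches, were above the floor in 4 of 6, with Dlx1 at 7.33 ± 0.12 and Dlx2 at 7.27 ± 0.14.

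The signals of muscle genes differed between the 6 arrays, and so did those of some other lists. Control 1 held the lowest value in 17 of 20 skeletal muscle genes, where 20.5% of all genes above the floor were lowest on that array. It was lowest in 6 of 7 troponins, 6 of 7 light chains, 4 of 4 actins, 14 of 20 sarcomere genes and 12 of 21 epithelial genes above the floor. Several of these genes are also in the skeletal muscle list. Control 6 was highest in 7 of 9 myosin heavy chains (18.5% of all genes were highest there), and control 1 was lowest in 3 of them. Control 1 was lowest in 9 of 23 metabolic isoforms. It was also lowest in 8 of 10 smooth muscle and pericyte genes and 8 of 12 immediate early genes, with mean deviations of -0.25 and -0.14. Averaged over the 20 muscle genes, control 1 lay 0.29 log2 units below the mean of the 6 arrays (a deviation of -0.29), and the other arrays lay between -0.04 and 0.15. The epithelial list gave -0.27 on control 1, and 0.18 and 0.16 on controls 2 and 5. Control 2 was highest in 12 of 20 sarcomere genes and 10 of 21 epithelial genes, where 21.6% of all genes were highest on it.

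On control 1 some other lists lay the opposite way. Cell cycle genes were highest on it in 9 of 12 cases and cranial mesenchyme in 8 of 14, where 19.0% of all genes were highest on that array. Mki67 read 12.30 there against 11.87 to 12.27 on the others, and Twist1 11.35 against 10.82 to 11.07. The mean deviations of these 2 lists on control 1 were 0.13 and 0.14. Cartilage and bone genes gave 0.15 on that array. Connective tissue matrix genes gave -0.13 on control 1, which was lowest in 7 of the 15 and highest in 0. Tendon genes gave -0.26 on control 1 and 0.28 on control 6, and Fn1 was highest on control 6 at 12.82. Control 6 is also the array with the low 18S signal, and the part of that in these values was not tested. The 3′ minus 5′ difference of Actb, a measure of RNA integrity, was 0.394 on control 1 and between 0.358 and 0.474 on the other arrays. That of Gapdh was highest on control 1, at 0.0823 against -0.0128 to 0.0737, and its part in the values of control 1 was not tested. Fn1, for fibronectin, was named after its values were seen.

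**Figure D4:**
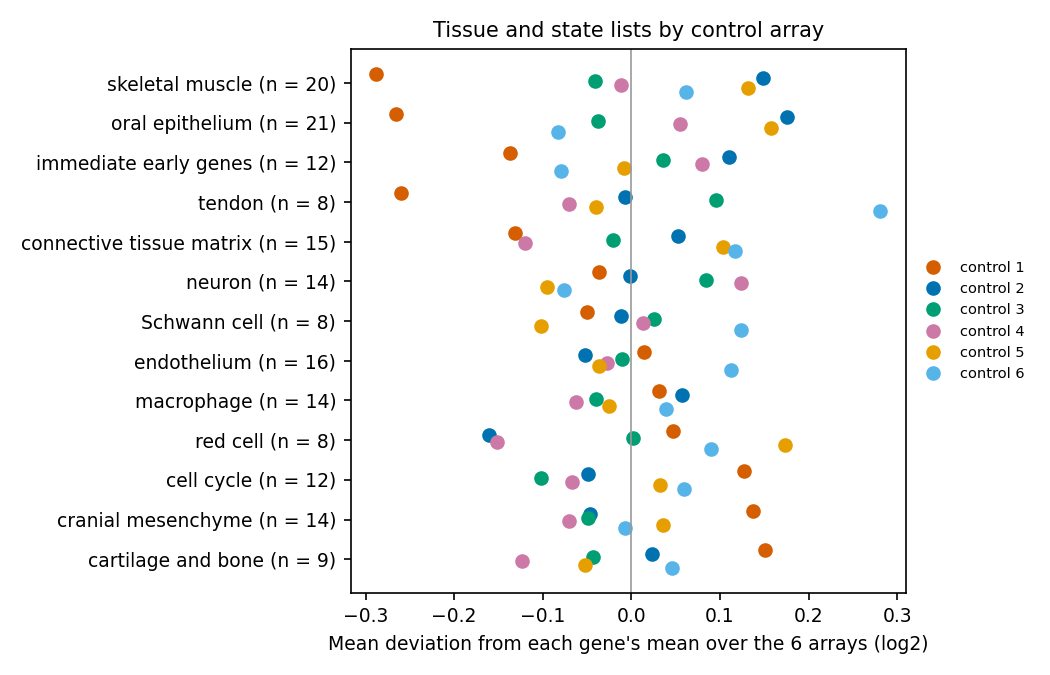
Mean deviation of each array from the gene's mean over the 6 control arrays, averaged over the genes of a list above the floor (n in brackets), in log2 units, with 1 coloured point per array. Control 1 sits at -0.29 for skeletal muscle and -0.27 for oral epithelium, and at 0.13 for the cell cycle and 0.14 for cranial mesenchyme.

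Without control 1 the median SD of the muscle genes was lower. That array was singled out as the lowest in 17 of the 20, a choice that favours a lower SD without it. The median SD of the 20 muscle genes was 0.13 over 6 arrays, near the 0.11 of all genes above the floor, and 0.08 without control 1. No SD of all genes without control 1 is given to set beside the 0.08. Eno3 went from an SD of 0.43 to 0.11, Myf6 from 0.52 to 0.18 and Krt15 from 0.34 to 0.13, while Ckm kept 0.48 of 0.74 and Ttn 0.41 of 0.40. Ttn and Neb were highest on control 6 and lowest on control 3, whereas Acta1 and Ckm were lowest on control 1.

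Whether markers vary with the muscle gene Myog was asked with 11 genes. Of these, Acta1 and Pax7 mark muscle and its progenitors, and the others mark another cell type or state. No relation passed an adjusted p of 0.05 across the 6 arrays by exact 2-sided permutation tests of Pearson's r with Benjamini-Hochberg adjustment over the 11, and the smallest adjusted p was 0.183. The smallest p that 720 pairings can give is 0.00139. Unadjusted values under 0.05 were reached by 2 relations. Mki67, of dividing cells, gave r = -0.79 (exact permutation p = 0.025, Spearman's rho = -0.83, exact permutation p = 0.0583). Prrx1, of mesenchyme, gave r = -0.84 (exact permutation p = 0.0361, rho = -0.77, exact permutation p = 0.103). Cdh5, of endothelium, gave r = -0.77 (exact permutation p = 0.05, rho = -0.83, exact permutation p = 0.0583). Without controls 1 and 3, the arrays farthest from the Myog median, these became -0.47, -0.46 and -0.18 over 4 arrays, which also narrows the range of Myog. Without control 1 alone they were -0.68, -0.83 and -0.62, and without control 3 alone -0.68, -0.51 and -0.69. The other 8 had an r between -0.18 and 0.45, with Acta1 at 0.44 (adjusted exact permutation p = 0.721) and Epcam at 0.34. Myog itself spanned only 0.15 log2 units.

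How closely genes of a list followed a marker was described by r across the 6 arrays, with no test, since all values share the same arrays. Of the skeletal muscle genes, 19 of 19 had an r above 0 with Acta1 (49.6% of all genes did), with a median of 0.70 against -0.01 for all genes, although 0 of 19 reached 0.9, which 1.43% of all genes did. With Myog in place of Acta1, 15 of 19 were above 0, and 0 of 19 reached 0.9, against 0.679% of all genes. Without control 1, 6 of 19 were above 0 with Myog and the median r was -0.37. The relation to Acta1 likewise rested on control 1. Without it 7 of 19 were above 0 and the median was -0.15. Without control 3 it was 0.79. With Epcam, the cell adhesion gene of epithelium, 18 of 20 epithelial genes had an r above 0 (49.9% of all genes did) and the median was 0.78. Krt5, Krt15 and Esrp1, a splicing factor of epithelia, reached 0.9, against 1.25% of all genes. Here control 1 mattered less, as the median was 0.72 and 18 of 20 were above 0 without it. Without control 3 it was 0.83, and 7 of 20 reached 0.9, against 2.72% of all genes.

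Cell cycle genes had an r above 0 with Mki67 in 11 of 11 cases (54.6% of all genes), with a median r of 0.70, and Top2a reached 0.9, as did 0.934% of all genes. Without control 1, 10 of 11 had an r above 0 and the median was 0.50. Immediate early genes respond within minutes to handling and stimuli. With Fos, 8 of 11 had an r above 0 (47.5% of all genes), and the lowest r was -0.55. Jun, Ier3, Dusp1 and Ccn1, 4 of the 11, reached 0.9, against 2.01% of all genes. Without control 1, 3 of 11 reached it (3.24% of all genes), and without control 2, 2 of 11 (2.76%). Fos ranged from 7.83 on control 1 to 8.59 on control 2, and Jun from 10.73 to 11.28 with control 2 highest as well. Neuronal genes gave 2 of 13 with Tubb3, Stmn3 and Phox2a, against 1.12% of all genes, and Tubb3 was highest on control 4 at 7.98, an array on which 7.76% of all genes were highest. Without control 4, 1 of 13 reached 0.9, against 4.45% of all genes, and those with an r above 0 went from 10 to 7 of 13. All 7 red cell genes had an r above 0 with Hba-x (54.5% of all genes, median 0.60), and none reached 0.9, against 1.25% of all genes. Of macrophage genes, 5 of 13 had an r above 0 with Csf1r (54.7% of all genes), 0 of 13 reached 0.9 (1.47% of all genes) and C1qb was at 0.89. Without control 1, 8 of 13 had an r above 0, and the median r went from -0.04 to 0.42. Endothelium gave a median of 0.33 with Cdh5 and 0 of 15 at 0.9 (1.17% of all genes). With Pax7, 1 of 25 myogenic regulators reached 0.9, Mef2d, against 1.81% of all genes. Neither the mesenchyme genes with Prrx1 (0 of 13, against 1.08% of all genes) nor the cartilage genes with Col2a1 (0 of 8, against 0.795%) reached it.

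The genes closest to Acta1 were Arhgap26, Sfmbt2, Timmdc1, Fhl1 and Msi2, with r from 0.98 to 0.99, of which Fhl1 codes for a LIM protein of muscle and read 11.87 ± 0.31. With Epcam, Krt15 (0.98) and the muscle filament gene Des (0.97) were among the 8 closest. Prkag3, a kinase subunit of muscle, and the keratin Krt6a were closest to Fos (both 0.99), Smarcad1 to Mki67 (0.99) and Cenpe, a motor of dividing cells, to Cdh5 (1.00). The gene closest to Csf1r was the adult fast myosin Myh1 (0.99), and that closest to Hba-x was Smad5 (1.00). Each r is the highest or among the 8 highest of 12955 genes over 6 arrays, and it says nothing of shared function. Esrp1, Ier3 and Phox2a were named after their values were seen.

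The most variable genes were those of the sex chromosomes. Among genes above the floor, 83 had an SD of at least 0.5 and 11 of at least 1, while the median SD was 0.11 and the 99th percentile 0.43. The 4 with the highest SD were Xist (3.28), Eif2s3y (2.95), Kdm5d (2.64) and Uty (2.42). Next came Cstf2t, a relative of a polyadenylation factor, which read 6.61 on control 1 and between 11.66 and 12.47 on the other arrays (an SD of 2.30, and 0.32 without control 1). AI506816 separated controls 1, 2 and 5 (5.35 to 6.11) from controls 3, 4 and 6 (8.61 to 8.84). Tmem87a was high on controls 1 and 2 (8.85 and 9.02) and between 6.41 and 7.22 on the others, and Tmem267 had the opposite split, at 5.95 and 6.57 on controls 1 and 2. Of named muscle and epithelial genes, Actn3, Krt4 and Atp1b4, a muscle protein related to the sodium pump's beta subunit, were among the 20 with the highest SD. Aspn, for the matrix protein asporin, also was, at 10.05 on control 2 and 7.67 on control 1.

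The 50 most variable genes fell into 22 groups when joined by their correlation (average linkage, cut at r = 0.8). The largest held 9 genes, Cstf2t, Atp1b4, Calcb, Ckm, Mlip, Ankrd2, Padi2, Chil1 and C1ql3, and on average they deviated from their means by -1.55 log2 units on control 1 and by 0.76 on control 2. Mlip and Ankrd2 code for proteins of muscle. Another group of 4 held the Y-linked Eif2s3y, Kdm5d and Uty together with Wars2. Since these genes were chosen by their spread, the groups describe the arrays and were not tested. Calcb, Mlip, Ankrd2, Padi2, Chil1, C1ql3 and Wars2 were named after their values were seen.

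**Figure D5:**
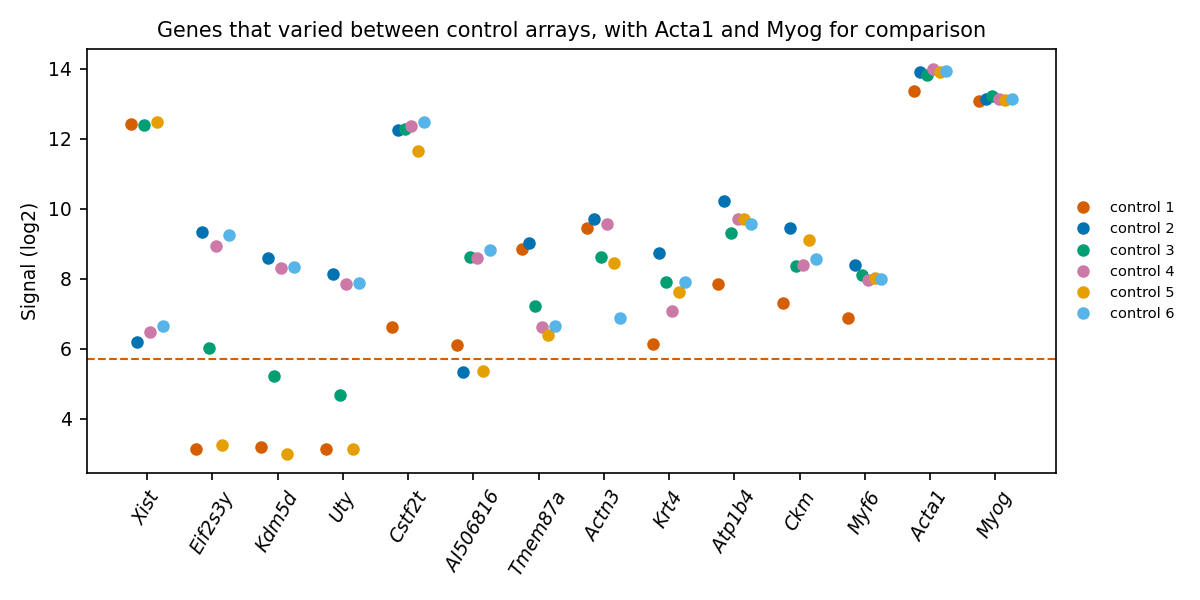
Log2 signal of 12 genes that varied between the 6 control arrays, and of Acta1 and Myog for comparison, with 1 coloured point per array and the floor at 5.72 as a dashed line. Xist splits controls 1, 3 and 5 (12.40 to 12.49) from controls 2, 4 and 6 (6.20 to 6.65), Y-linked genes are intermediate on control 3, and Cstf2t is at 6.61 on control 1 only.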

How the data were processed

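Total RNA of whole tongues was labelled with biotin and hybridised to Affymetrix arrays, per the labels' protocols. Per the submitters' processing notes, the authors used RMA, and what they deposited is a log2 signal per probe set. The method removes background, brings arrays to 1 distribution and summarises the probes of each set. No source used here states the log base or the software version, and base 2 rests on the span of the control values, 2.57 to 15.08.

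Of 45101 probe sets, 64 controls, 932 with several gene symbols and 9160 with none were left out. The other 34945 gave 18193 genes, each by its probe set with the highest mean over the 12 arrays. Values were used as deposited, and 6 arrays set the precision of each mean. Groups come from the sample labels. Each p-value is the share of the 720 pairings of arrays that give a correlation at least as large in absolute value.

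The members and the 58 gene lists (733 entries) were chosen with earlier results of these data known. Genes were named by a rule: the 20 highest means, the 20 highest SDs above the floor, the markers, all members of lists of isoforms, ligands and receptors, up to 6 members with the highest mean of other lists plus those not above the floor, and up to 8 genes with the highest r per marker. The 11 relations with Myog were tested by exact permutation over 720 pairings, with Benjamini-Hochberg adjustment. A further planned relation is not reported here. The calculations were tested on simulated data. Alternatives were another scaling, the choice of probe set, the floor, the threshold on r, Spearman's rho and leaving out each array. Calculations used Python 3.11.15 with numpy 2.4.6, pandas 2.3.3, scipy 1.17.1 and matplotlib 3.10.9.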

Additional observations from a re-analysis of the deposited data

Results flagged for a closer look

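Single arrays stood away from the other 5 for 36 of the 318 genes named in the text. In each, the gap between the lowest or highest array and its neighbour, taken as a share of the range over the 6 arrays, passed Dixon's 95% limit for 6 samples. Chance flags about 1 in 20 genes chosen without regard to their values, a rate that does not apply here, since many of these genes were named for their spread, their steps or their likeness to Acta1. Of the 36, 23 were low on control 1, which that choice favours. None of 16 list means of deviations passed that limit.

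Contractile and Z-disc genes low on control 1 were Acta1 (13.36 against 13.83 to 14.01), Acta2 (14.02 against 14.11 to 14.16), Actn2 (12.06 against 12.38 to 12.53), Myh7 (11.01 against 11.51 to 11.75), Tnnc1 (13.26 against 13.38 to 13.44) and Tpm1 (13.05 against 13.29 to 13.39). Other muscle genes low on that array were Ankrd2 (6.67 against 8.01 to 8.41), Eno3 (10.88 against 11.73 to 12.01), Fhl1 (11.24 against 11.94 to 12.04), Myf6 (6.89 against 7.96 to 8.40), Sln (12.38 against 12.82 to 13.04), Chrna1 (10.91 against 11.14 to 11.28) and Chrng (9.80 against 10.09 to 10.25). The epithelial keratin gene in this position was Krt15 (12.13 against 12.74 to 13.08). Signalling and transcription genes low on control 1 were Sfrp1 (9.23 against 10.22 to 10.79), Ntrk2 (9.15 against 9.73 to 9.91), Nkx2-5 (9.29 against 9.63 to 9.71) and Mef2b (5.30 against 5.41 to 5.48). The tendon gene low there was Thbs4 (12.43 against 12.81 to 12.95). Further genes low there were Cstf2t (6.61 against 11.66 to 12.47), Msi2 (10.31 against 10.55 to 10.68), Sfmbt2 (6.21 against 6.89 to 7.10) and Timmdc1 (8.41 against 9.03 to 9.19). The values are log2 signals, each given with the range of the other 5 arrays.

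Other arrays gave fewer such genes. Control 1 was high in Klhl42 (10.28 against 9.33 to 9.39). Control 2 was low in Hoxa10 (3.27 against 3.48 to 3.53) and Myl6 (6.59 against 6.80 to 6.92). Control 3 was low in Jag1 (10.68 against 10.96 to 11.07) and Robo1 (10.69 against 10.96 to 11.11). Control 4 was high in Smad7 (8.83 against 8.64 to 8.69), Dera (10.43 against 9.17 to 9.43) and Hebp1 (10.68 against 9.34 to 9.64). Control 6 was high in Col11a1 (9.30 against 8.97 to 9.09) and Cnmd (6.93 against 5.53 to 6.03). It was low in Smad2 (9.04 against 9.51 to 9.65), Tas1r2 (4.98 against 5.21 to 5.31) and Wnt7b (8.75 against 8.92 to 9.00). Hoxa10, Mef2b and Tas1r2 were not above the floor, where differences carry little. Klhl42, Dera, Hebp1 and Cnmd were named after their values were seen.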

How the results depend on the processing

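Counts above the floor kept within 1.5 times of the reported ones for all genes (11566 to 13195) and for the list genes together (476 to 522, reported 520). This held under each scaling, probe set and left-out array, at the stricter floor, and with the floor passed on each array. A floor at the median of all genes left 9096 genes, a count fixed by that choice, and 388 list genes. Of 754 counts for single lists under alternatives, 39 moved by more than 1.5 times, most of them with the floor at the median of all genes. Of the 20 most variable genes, 11 stayed among the 20 when each gene's probe sets were averaged, and 12 to 18 when an array was left out, 12 of them without control 1. Genes with an r of at least 0.9 numbered 1942 summed over the 12 markers, 479 at 0.95, and 3737 to 4585 with an array left out, where 5 arrays remain. With arrays left out, the r with Myog ranged from -0.77 (without control 1) to 0.88 (without control 3) for Acta1, from -0.22 to 0.91 for Pax7 (without the same arrays), from -0.20 (without control 3) to 0.38 (without control 1) for Tubb3, from -0.42 to 0.59 (without control 1) for Col2a1, from -0.42 (without control 1) to 0.60 for Epcam, from -0.75 (without control 1) to 0.66 (without control 3) for Csf1r, and from -0.18 (without control 1) to 0.69 for Fos. It also changed sign with arrays centred on their medians for Tubb3 (-0.28) and Csf1r (0.19), with quantile normalisation for Col2a1 (0.0865), with averaged probe sets for Epcam (-0.0463) and as Spearman's rho for Csf1r (0.14). The cause was not tested. Control 1 was lowest in 15 to 18 of the 20 skeletal muscle genes under every scaling and probe set choice and without each other array, alternatives chosen after seeing the data. No paired analysis was possible because only the control group was used. The dimmest genes are limited by signal over background, and 44 list genes lie between the 2 floors.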

Other observations

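Some genes outside the lists stepped between arrays, and they were named after their values were seen. A step was a gap of at least 0.8 log2 units between neighbouring arrays that was over 1.5 times the range of the arrays on either side of it, and 29 of 12956 genes had one. In 9 of the 29 control 1 alone was low, among them Atp1b4, Ankrd2, Myf6, Eno3 and Sfrp1. Hddc3 read 9.34 and 9.25 on controls 2 and 3 and between 7.18 and 7.43 on the others. Has3, for a hyaluronan synthase, read 7.46 and 7.37 on controls 4 and 5 and between 5.93 and 6.11 on the others. Rbm45, for an RNA-binding protein, read 8.83 and 9.07 on controls 1 and 3 and between 10.38 and 10.48 on the others. The arrays on the high side thus differed from gene to gene, and no cause was tested.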
